A study of Mus musculus with 9 samples.

Results

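The genes described here serve protein folding in the endoplasmic reticulum (ER) and the unfolded protein response. They are the 35 genes of a fixed list, and all 35 of them were found, by gene name, among the 20627 features of the deposited count table. By role, 5 are stress sensors and transcription factors, 11 are chaperones with their helpers, 8 are enzymes of disulfide bond formation and 11 belong to ER-associated degradation. Polyadenylated RNA of RAW264.7, a mouse line of macrophage-like cells, was sequenced in 9 libraries, 3 replicates in each of 3 groups. HG cells were kept for 6 h in 35 mmol/l glucose, and HG-SIG cells had the same glucose and time with sitagliptin phosphate, an inhibitor of dipeptidyl peptidase 4, added. NC was read as the control, and the sources used here give neither its glucose concentration nor its time. No group had sitagliptin without added glucose or an osmotic control, all groups come from 1 cell line, and nothing in the labels says that replicates were separate cultures, so p-values measure the spread between these libraries, which may be technical.

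Secreted and membrane proteins fold in the ER with the help of chaperones of the HSP70 and HSP90 families, the lectins calnexin and calreticulin, and disulfide isomerases. When unfolded proteins accumulate, the membrane sensors IRE1 (gene Ern1), PERK (Eif2ak3) and ATF6 signal to the nucleus. IRE1 splices Xbp1 mRNA into the form that codes for an active transcription factor, ATF6 is cut to release another, and PERK slows translation. Their targets include the chaperones and the machinery that pulls misfolded proteins out of the ER for destruction by the proteasome. Macrophages, which secrete cytokines and lysosomal enzymes, use this machinery, and Xbp1 serves secretory cells in particular. The counts are totals per gene, so spliced and unspliced Xbp1 mRNA were not told apart.

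Library totals ranged from 23285821 to 31571578 counts, and the 35 genes took 0.982% to 1.25% of them. All 8 macrophage markers examined were well above the low-count filter, among them Lyz2, Csf1r and Cd68, while the lists of lymphocyte, epithelial and fibroblast markers each summed to at most 0.201 CPM (counts scaled to a common library size) in any library. HG replicate 3 differed more from the other HG libraries, by 8.64 and 9.45 chi-square units per gene, than any other pair of replicates, for which the value was at most 6.06. Its effect is given beside the results it touches.

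Most of the listed genes fell with sitagliptin. In HG-SIG against HG, 25 of the 34 tested genes fell and 2 rose, at an adjusted p under 0.05 by edgeR's quasi-likelihood test over all tested features. Over all 13311 features, 26.8% were called lower and 25.7% higher in that comparison. The median log2 fold change of the members was -0.40, against 0.01 over all features. The libraries of HG-SIG lay below all HG libraries for 25 of the 34 genes, where this held for 28.8% of features, and above them for 3, where it held for 29.9%. Without HG replicate 3, 24 fell and 2 rose. Macrophage markers moved with this result: all 8 fell in HG-SIG against HG, and their summed level was 10856 to 11322 CPM in NC, 9772 to 10555 in HG and 5035 to 5138 in HG-SIG, with 0 of the 8 genes at 0 counts. Their part in the result was not tested. In these bulk libraries, fewer cells of a type and less RNA per cell cannot be told apart.

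Few of the genes changed in high glucose without the drug: 3 of the 34 rose and 6 fell in HG against NC, where 14.3% of all features were called higher and 15.2% lower. These shares of the members were near the background. HG lay above all NC libraries for 4 members and below them for 8, each of which held for 20.8% of features. Their median log2 fold change was -0.01 and the range -0.70 to 0.31. Without HG replicate 3, 3 rose and 6 fell. In HG-SIG against NC, 27 fell and 3 rose, with 28.7% of features lower and 29.9% higher, and a median of -0.47 among the members against 0.02 over all features. HG-SIG lay below NC without overlap for 27 members and above for 4, against 31.7% and 34.2% of features. The HG libraries enter both of the first comparisons, and the NC libraries both comparisons with NC, so the comparisons are not independent of each other. The 35th gene, Derl3, a member of the derlin family, had 0, 1 and 0 counts in NC, 2, 1 and 0 in HG and 2, 0 and 1 in HG-SIG, at or under a floor of 3 counts per library, and allows no fold.

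**Figure D1:**
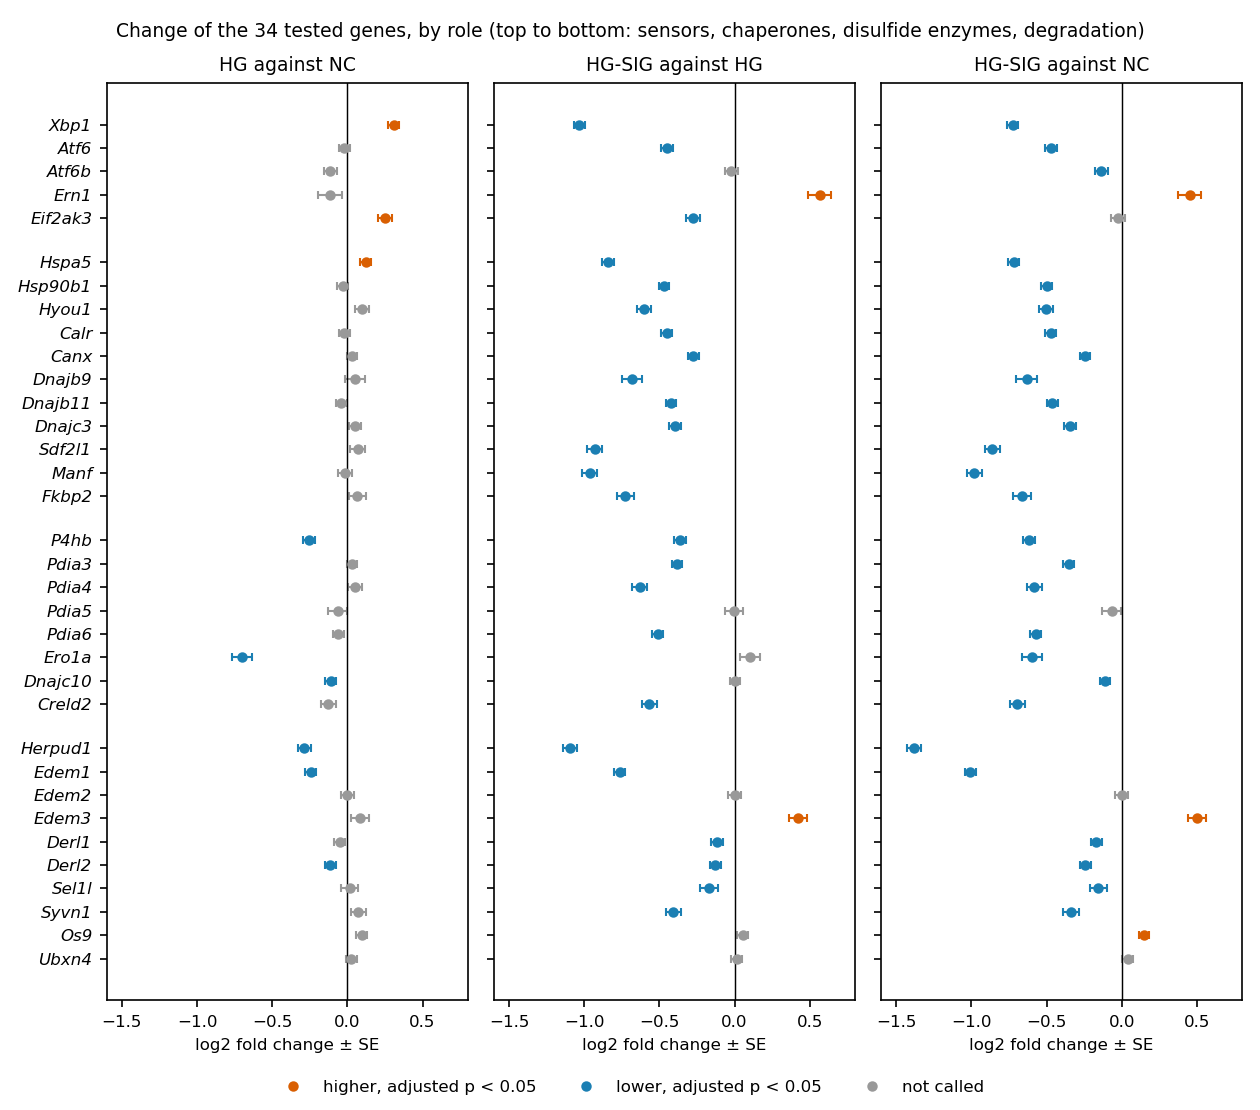
Log2 fold change with its standard error (x axis) of the 34 tested genes, grouped by role, in each of the 3 comparisons, coloured by whether the edgeR test called them higher, lower or neither. Most points lie near 0 in HG against NC, and 25 lie on the lower side as called genes in HG-SIG against HG.

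A DNA element through which ATF6 and XBP1 are known to act, the ER stress response element (ERSE, the letters CCAAT and CCACG with any 9 bases between them), was searched for on both strands from 250 bases before to 50 after each gene's start in RefSeq (GRCm38.p6), together with ERSE-II (ATTGG, any 1 base, CCACG). These windows were held for 31 of the 35 genes. An exact ERSE stood in 9 of the 31 (29.0%) and ERSE-II in another 2, with 0 genes holding both. Over the 27025 genes of the promoter table the shares were 0.137% for ERSE and 0.0444% for ERSE-II. The list was chosen for genes of this stress response, so the higher share among its members is no independent result. The stretches that hold the matches are printed here because the 10 of these genes that were tested all fell with sitagliptin. Capitals mark the letters of the exact match, and a match that opens with CGTGG lies on the opposite strand to the one printed. A shorter stretch is given for Hspa5 and Dnajb11, where it lies inside the gene as GENCODE M21 annotates it.
Hspa5 (chr2:34772020-34772048, plus strand): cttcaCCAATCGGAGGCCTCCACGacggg
Hsp90b1 (chr10:86705513-86705676, minus strand): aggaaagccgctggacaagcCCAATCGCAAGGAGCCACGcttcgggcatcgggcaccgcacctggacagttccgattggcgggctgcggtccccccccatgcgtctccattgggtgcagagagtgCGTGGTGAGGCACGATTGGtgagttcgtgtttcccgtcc
Calr (chr8:84847055-84847113, minus strand): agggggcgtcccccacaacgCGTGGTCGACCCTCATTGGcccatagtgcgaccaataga
Canx (chr11:50325780-50325838, minus strand): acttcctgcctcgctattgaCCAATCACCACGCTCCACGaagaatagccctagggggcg
Dnajc3 (chr14:118937807-118937865, plus strand): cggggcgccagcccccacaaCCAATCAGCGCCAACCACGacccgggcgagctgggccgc
Pdia6 (chr12:17266471-17266529, plus strand): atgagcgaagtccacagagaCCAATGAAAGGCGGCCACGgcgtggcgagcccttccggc
Creld2 (chr15:88819500-88819558, plus strand): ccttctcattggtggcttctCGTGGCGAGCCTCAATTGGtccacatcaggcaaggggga
Syvn1 (chr19:6046512-6046570, plus strand): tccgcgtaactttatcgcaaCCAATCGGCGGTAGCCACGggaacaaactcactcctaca
Derl3 (chr10:75893222-75893280, plus strand): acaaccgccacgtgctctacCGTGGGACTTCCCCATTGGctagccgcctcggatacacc
Herpud1, ERSE-II (chr8:94386357-94386407, plus strand): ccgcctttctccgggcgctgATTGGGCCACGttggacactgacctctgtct
Dnajb11, ERSE-II (chr16:22857847-22857867, plus strand): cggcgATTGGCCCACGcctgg

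Counted from the annotated start base as 0, the ERSE of Hspa5 began at -65, that of Syvn1 at -44 and that of Calr at -162, and Hsp90b1 held a pair of them, at -212 and -107. The other motifs searched, the UPRE core TGACGTGG and the CRE-like TGACGTCA, had no exact match in the windows of the 31 genes, and were held by 0.714% and 2.03% of the genes of the table. A missing match says only that these exact letters were not in the window.

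Of the 10 tested genes with an ERSE or ERSE-II, all 10 were called lower in HG-SIG against HG, with a median log2 fold change of -0.46 and a range of -1.09 to -0.27. Among the 20 tested genes with a window but neither motif, 11 were lower, 2 higher and 7 not called, with a median of -0.15 and a range of -1.03 to 0.57. Between NC and HG the medians were -0.03 and 0.02. Outside the list, 15 tested genes had 1 of these motifs, and of those 5 were lower and 1 higher in HG-SIG against HG, a share lower of 33.3% against 27.9% of the 9389 other tested genes with a window and neither motif. Whether listed and other genes with a motif differ was not tested. Genes with neither motif were also among those with the largest falls, for instance Xbp1 (-1.03) and Sdf2l1 (-0.93). Motif and role went together in part: Hspa5, Hsp90b1, Calr, Canx, Dnajb11 and Dnajc3 are chaperone genes, a role in which all 11 fell. The other tested genes with a motif were the disulfide enzyme genes Pdia6 (-0.51) and Creld2 (-0.57) and the degradation genes Herpud1 (-1.09) and Syvn1 (-0.41). Disulfide enzyme genes with a window and neither motif ran from -0.63 (Pdia4) to 0.10 (Ero1a), and such degradation genes from -0.76 (Edem1) to 0.42 (Edem3). The chaperone genes with a window and neither motif were Dnajb9 (-0.68), Sdf2l1 and Fkbp2 (-0.73). All of them fell more than the chaperone genes with a motif other than Hspa5 (-0.84), and Sdf2l1 fell more than Hspa5 as well. What the motif adds to the role was not tested.

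**Figure D2:**
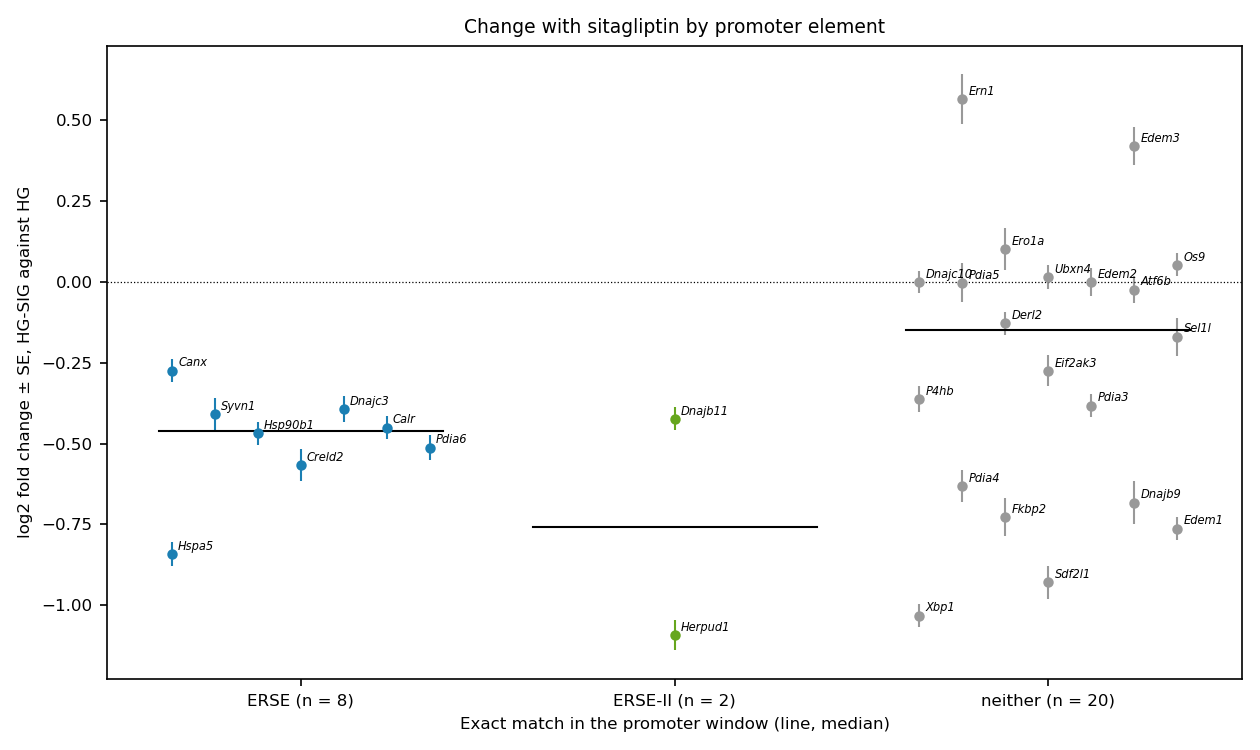
Log2 fold change in HG-SIG against HG with its standard error (y axis) for the 30 tested genes with a promoter window, split by an exact match to ERSE, to ERSE-II or to neither (x axis), with a line at each median. The 8 ERSE and 2 ERSE-II genes all lie below 0, while the 20 others spread from -1.03 to 0.57.

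The sensors and transcription factors did not move as 1 group. Xbp1 (ENSMUSG00000020484, chromosome 11, 5520659 to 5525893 on the plus strand in mm10), the transcription factor gene downstream of IRE1, was at 213, 215 and 213 CPM in NC, 262, 260.1 and 272 CPM in HG and 129, 134 and 126 CPM in HG-SIG. The 3 groups did not overlap, with HG the highest and HG-SIG the lowest. Its log2 fold change was 0.31 ± 0.04 (SE, adjusted p = 2.8e-05) in HG against NC, -1.03 ± 0.04 (adjusted p = 2.55e-10) in HG-SIG against HG and -0.72 ± 0.04 (adjusted p = 2.81e-09) in HG-SIG against NC. With the drug Xbp1 thus fell by 51.1% from its level in HG.

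Ern1 (ENSMUSG00000020715, chromosome 11, 106394650 to 106487852 on the minus strand), which codes for the sensor and nuclease IRE1, went the other way from Xbp1 with sitagliptin. It was at 16.4, 14.1 and 14.5 CPM in NC, 13.4, 13.3 and 15 CPM in HG and 19.98, 19.7 and 21.98 CPM in HG-SIG. Every HG-SIG library lay above all NC and HG libraries, while NC and HG overlapped. Ern1 rose in HG-SIG against HG (0.57 ± 0.08, adjusted p = 5.56e-05) and against NC (0.45 ± 0.08, adjusted p = 0.000216), and its log2 fold change in HG against NC was -0.12 ± 0.08 (adjusted p = 0.317). Eif2ak3, the gene of the translation-slowing kinase PERK, was at 30.04, 32.03 and 31.5 CPM in NC, 36.5, 36.4 and 38.4 CPM in HG and 30.4, 29.5 and 31.9 CPM in HG-SIG. HG stood above both other groups without overlap, and NC and HG-SIG overlapped. It rose in HG (0.25 ± 0.05, adjusted p = 0.0017) and fell with sitagliptin (-0.27 ± 0.05, adjusted p = 0.000394), a fall that did not pass when libraries were scaled by size alone (-0.11, adjusted p = 0.0648) or with limma on log2(TPM + 1) (-0.068, adjusted p = 0.295). The difference between HG-SIG and NC was -0.02 ± 0.05 (adjusted p = 0.685), and 0.17 with library size alone (adjusted p = 0.0101).

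Atf6, the gene of the sensor that is itself cut into a transcription factor, was at 214, 205 and 213 CPM in NC, 199, 210.4 and 215 CPM in HG and 149, 152 and 155 CPM in HG-SIG. NC and HG overlapped, and HG-SIG lay below both. It fell with sitagliptin (-0.45 ± 0.04, adjusted p = 9.34e-07), and its log2 fold change in HG against NC was -0.02 ± 0.04 (adjusted p = 0.74). Its relative Atf6b was at 163 ± 1.89, 151 ± 4.37 and 148 ± 8.39 CPM in the same order (mean ± SD, n = 3). The log2 fold change of Atf6b was -0.02 ± 0.04 with sitagliptin (adjusted p = 0.675) and -0.11 ± 0.04 in HG against NC (adjusted p = 0.0654, and 0.0482 when only those 6 libraries were fitted). It was called lower in HG-SIG against NC (-0.14 ± 0.04, adjusted p = 0.0149), a call lost without HG-SIG replicate 2 (-0.091, adjusted p = 0.0758) and turned to 0.053 with library size alone.

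**Figure D3:**
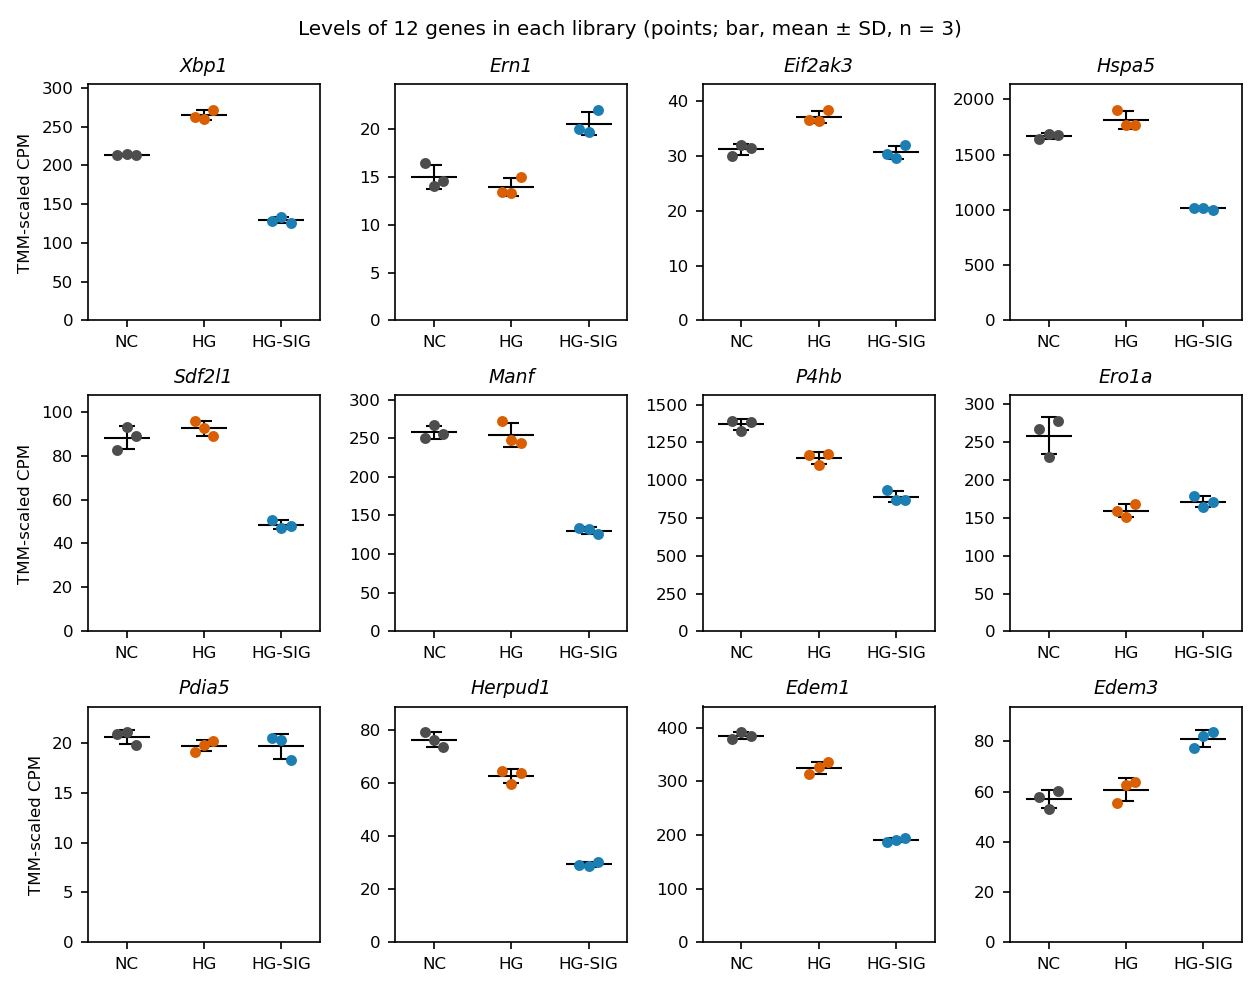
Level in CPM scaled with TMM (y axis, from 0) of 12 genes in each of the 9 libraries (points), by group (x axis), with the mean and SD of 3 libraries. Xbp1, Hspa5, Sdf2l1, Manf, Herpud1 and Edem1 are lowest in HG-SIG without overlap, Ern1 and Edem3 are highest there, and Ero1a is lower in HG and HG-SIG than in NC.

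All 11 chaperone and co-chaperone genes fell with sitagliptin, and HG and HG-SIG libraries did not overlap for any of them. Of all features 26.8% were called lower, and 28.8% lay lower without overlap. Their median log2 fold change in HG-SIG against HG was -0.60 and the range -0.96 to -0.27. All 11 were also lower in HG-SIG against NC, with a median of -0.51, where 28.7% of all features were lower. In HG against NC 1 rose and 10 were not called, with a median of 0.05, where 14.3% of all features were higher. Their summed level was 7312, 7297 and 7288 CPM in NC, 7647, 7222 and 7483 CPM in HG and 5079, 5138 and 5068 CPM in HG-SIG. HG and NC overlapped in this sum, and HG-SIG lay below both. The macrophage markers, as given above, fell as well.

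Hspa5 (ENSMUSG00000026864, chromosome 2, 34771970 to 34777547 on the plus strand) codes for BiP, the HSP70 of the ER and the protein that holds the sensors inactive. It was at 1636, 1684 and 1675 CPM in NC, 1905, 1764 and 1769.7 CPM in HG and 1013, 1020.4 and 1003 CPM in HG-SIG. The groups did not overlap, and HG-SIG was far below the others. Its fall with sitagliptin was -0.84 ± 0.04 (adjusted p = 2.54e-09), which is a fall of 44.2% from the HG level. The rise in HG against NC was small (0.12 ± 0.04, adjusted p = 0.0258) and did not pass without NC replicate 1 (0.11, adjusted p = 0.0918), NC replicate 3 (0.13, 0.0569) or HG replicate 1 (0.086, 0.114), nor when only the 6 libraries compared were fitted (0.0718).

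The partners of BiP fell by unequal amounts. Sdf2l1, an ER protein found in complexes with BiP and its J proteins, was at 82.6, 92.9 and 89.1 CPM in NC, 95.8, 92.4 and 88.9 CPM in HG and 50.7, 46.9 and 48.1 CPM in HG-SIG. Manf, which codes for an ER stress protein that binds BiP and can be secreted, was at 250.04, 267 and 255 CPM, 273, 248 and 243 CPM and 133, 132 and 126 CPM in the same groups. For both genes NC and HG overlapped and HG-SIG lay well below them. They had the largest falls of the 11 with sitagliptin, -0.96 ± 0.05 (adjusted p = 6.47e-09) for Manf and -0.93 ± 0.05 (adjusted p = 1.39e-08) for Sdf2l1. Of the J proteins, which feed clients to BiP, Dnajb9, also known to restrain IRE1, fell by 37.7% (-0.68 ± 0.07), Dnajb11 by 25.4% (-0.42 ± 0.04) and Dnajc3, an inhibitor of PERK as well, by 23.9% (-0.39 ± 0.04). The levels of Dnajb11 were 235 ± 4.37, 229 ± 4.71 and 171 ± 5.25 CPM in NC, HG and HG-SIG, and those of Dnajc3 107 ± 3.31, 111 ± 4.11 and 84.4 ± 2.43 CPM. Dnajb9 was scarcer, at 16.98 ± 0.512, 17.5 ± 1.09 and 10.9 ± 0.55 CPM in NC, HG and HG-SIG. Hyou1, a nucleotide exchange factor of BiP, fell from 635 ± 42.96 to 418 ± 10.1 CPM (-0.60 ± 0.05, adjusted p = 3.79e-07). Hyou1 was not called in HG against NC (0.10 ± 0.05, adjusted p = 0.138), but without HG replicate 2 it passed (0.15, adjusted p = 0.0204).

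The abundant general chaperones fell less than Hspa5. Hsp90b1, the HSP90 of the ER, was at 1871, 1855 and 1893 CPM in NC, 1878, 1759.9 and 1862 CPM in HG and 1316, 1346 and 1313 CPM in HG-SIG. Calr, the gene of the soluble lectin calreticulin, was at 1454, 1428 and 1392 CPM, 1453, 1362 and 1395 CPM and 1025, 1033 and 1023 CPM. NC and HG overlapped for both, and HG-SIG lay below. Log2 fold changes with sitagliptin were -0.47 ± 0.04 (adjusted p = 3.26e-07) for Hsp90b1 and -0.45 ± 0.04 (adjusted p = 4.86e-07) for Calr. Canx, the gene of calnexin, the membrane lectin, had the smallest fall of the 11 (-0.27 ± 0.03, adjusted p = 3.22e-05, from 1016 ± 24.7 to 841 ± 10.95 CPM), which did not pass with limma on log2(TPM + 1) (-0.069, adjusted p = 0.121). Its fall against NC (-0.24 ± 0.03, adjusted p = 5.93e-05) did not pass with library size alone (-0.053, 0.193), and with limma on log2(TPM + 1) neither did that of Dnajc3 (-0.34 ± 0.04 against -0.10, adjusted p = 0.0571). Fkbp2, a prolyl isomerase of the ER, fell from 45.3 ± 1.15 to 27.4 ± 1.53 CPM (-0.73 ± 0.06, adjusted p = 5.83e-07).

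Of the 8 disulfide enzymes, 5 fell with sitagliptin and 3 were not called, with a median log2 fold change of -0.37. Of all features 26.8% were called lower in that comparison. Against NC, 7 of the 8 were lower in HG-SIG (median -0.58) and 3 were lower in HG (median -0.09), beside 28.7% and 15.2% of all features. The oxidase gene Ero1a (ENSMUSG00000021831, chromosome 14, 45283087 to 45318771 on the minus strand), whose product passes electrons from disulfide isomerases to oxygen and which is also known as a hypoxia-responsive gene, differed from the others. It was at 267, 231 and 278 CPM in NC, 159, 151 and 168 CPM in HG and 178, 164 and 171 CPM in HG-SIG. NC lay above both glucose groups, which overlapped each other. Ero1a fell in HG against NC (-0.70 ± 0.06, adjusted p = 3.66e-06), the largest change of any member in that comparison, and its log2 fold change with sitagliptin was 0.10 ± 0.06 (adjusted p = 0.199). With the replicate number as a block the latter passed (0.10, adjusted p = 0.041).

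P4hb, the classic protein disulfide isomerase and a partner of Ero1a, stepped down across the groups. It was at 1394, 1328 and 1386 CPM in NC, 1166, 1104 and 1172 CPM in HG and 934, 871 and 873 CPM in HG-SIG, with no overlap. It fell in HG against NC (-0.25 ± 0.04, adjusted p = 0.000434) and in HG-SIG against HG (-0.36 ± 0.04, adjusted p = 1.17e-05). Pdia4 was at 189, 174 and 179 CPM in NC, 191, 175 and 196 CPM in HG and 126, 118 and 119 CPM in HG-SIG, with NC and HG overlapping and HG-SIG below. The mean levels of Pdia6 in the same groups were 495 ± 16.1, 474 ± 13.4 and 333 ± 6.15 CPM, and those of Pdia3 1089 ± 19.9, 1112 ± 35.98 and 853 ± 8.68 CPM. The isomerases Pdia4 (-0.63 ± 0.05) and Pdia6 (-0.51 ± 0.04), and Pdia3 (-0.38 ± 0.04), which works with calnexin and calreticulin, fell with sitagliptin without a call in HG against NC. Their adjusted p in HG-SIG against HG were 3.9e-07, 2.53e-07 and 2.01e-06. Creld2, an ER stress-induced gene whose product is reported to have disulfide isomerase activity, fell from 72.3 ± 5.42 to 48.8 ± 0.97 CPM (-0.57 ± 0.05, adjusted p = 1.45e-06). Creld2 was not called in HG against NC (-0.13 ± 0.05, adjusted p = 0.0692), but it passed without HG replicate 1 (-0.17, 0.0368) or HG replicate 3 (-0.16, 0.0437).

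Pdia5 and Dnajc10 were not called with sitagliptin under TMM scaling. Pdia5, another disulfide isomerase, was at 20.9, 21.1 and 19.8 CPM in NC, 19.1, 19.8 and 20.2 CPM in HG and 20.5, 20.2 and 18.2 CPM in HG-SIG, and all groups overlapped (adjusted p = 0.469 in HG against NC, 0.98 with sitagliptin and 0.357 between HG-SIG and NC). Dnajc10, a reductase that opens disulfides of proteins bound for degradation, was at 163 ± 3.38, 151 ± 3.08 and 151 ± 2.39 CPM (0.00 ± 0.03 with sitagliptin, adjusted p = 0.981). Dnajc10 was called lower in HG against NC (-0.11 ± 0.03, adjusted p = 0.0251). That call was lost without NC replicate 1 (adjusted p = 0.0836), NC replicate 3 (0.0846), HG replicate 1 (0.0854) or HG replicate 2 (0.0721), with log2 fold changes of -0.11 to -0.10, and also with library size alone (0.0901), limma on log2(TPM + 1) (0.122) or no low-count filter (0.069). Its call in HG-SIG against NC (-0.11 ± 0.03, adjusted p = 0.0129) was lost without HG-SIG replicate 2 (-0.10, 0.052) and turned to 0.079 with library size alone, and with limma on log2(TPM + 1) Dnajc10 was called higher (0.12, 0.00892).

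The degradation genes were divided. Of the 10 tested, 6 fell, 1 rose and 3 were not called with sitagliptin (median log2 fold change -0.12), beside 26.8% lower and 25.7% higher of all features. Scaled by library size alone 3 fell and 4 rose (median 0.04), where 1826 of all 13311 features fell and 6093 rose. Herpud1 (ENSMUSG00000031770, chromosome 8, 94386438 to 94395377 on the plus strand), a membrane scaffold of the degradation complex and an ER stress-induced gene, was at 79.5, 76.2 and 73.9 CPM in NC, 64.7, 59.8 and 63.8 CPM in HG and 29.1, 28.7 and 30.4 CPM in HG-SIG. The groups stepped down without overlap. Its log2 fold changes were -0.29 ± 0.04 (adjusted p = 0.000299) in HG against NC, -1.09 ± 0.05 (adjusted p = 1.63e-09) in HG-SIG against HG and -1.38 ± 0.05 (adjusted p = 5.41e-11) in HG-SIG against NC. The fall of 53.1% with sitagliptin was the largest among the members. With TMM scaling, Herpud1 and Xbp1 were the 2 members with an absolute log2 fold change over 1 in HG-SIG against HG. That is the fold criterion that the series names, and 5.3% of features met it together with the call. Over the alternatives tried, the smallest fall was -0.87 for Herpud1 and -0.82 for Xbp1, so neither met the criterion under all of them. In HG-SIG against NC, Herpud1 and Edem1 met it with TMM scaling, where 8.51% of features did. Over the alternatives the smallest fall there was -1.13 for Herpud1 and -0.77 for Edem1. For HG against NC, where 2.85% of features met it, the members ranged from -0.70 to 0.31.

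The EDEM genes, whose products are mannosidase-like proteins that mark misfolded glycoproteins, took 3 different courses. Edem1 was at 379.6, 393 and 384 CPM in NC, 314, 326 and 336 CPM in HG and 188, 192 and 195 CPM in HG-SIG. Edem3 was at 57.96, 53.3 and 60.3 CPM, 55.5, 62.7 and 64 CPM and 77.3, 82.3 and 83.9 CPM, and Edem2 at 36.4, 38.7 and 40.1 CPM, 37.7, 39.2 and 38.3 CPM and 38.4, 38.2 and 38.7 CPM. Edem1 stepped down without overlap, Edem3 was highest in HG-SIG with NC and HG overlapping, and the groups of Edem2 overlapped throughout. Edem1 fell with sitagliptin (-0.76 ± 0.04, adjusted p = 4.68e-09) and in HG against NC (-0.24 ± 0.04, adjusted p = 0.000231), and Edem3 rose with sitagliptin (0.42 ± 0.06, adjusted p = 7.93e-05). The opposite calls of Edem1 and Edem3 held under library size alone (-0.60 and 0.58), where Edem2 went from 0.00 (adjusted p = 0.995) to 0.16 (adjusted p = 0.00607), close to the median shift of all features.

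The ligase complex of ER-associated degradation is built around Syvn1 and Sel1l. Syvn1, the ubiquitin ligase HRD1, fell from 56.7 ± 3.78 to 42.7 ± 1.61 CPM (-0.41 ± 0.05, adjusted p = 2.73e-05), and was at 53.98 ± 1.34 CPM in NC. Its fall against NC (-0.34 ± 0.05, adjusted p = 9.07e-05) did not pass with limma on log2(TPM + 1) (-0.10, 0.158). Its adaptor Sel1l was at 162, 161 and 171 CPM in NC, 156, 158 and 186 CPM in HG and 146, 146 and 153 CPM in HG-SIG, with HG replicate 3 the highest. Its call with sitagliptin (-0.17 ± 0.06, adjusted p = 0.0286) was lost without HG replicate 3 (-0.081, adjusted p = 0.106), HG-SIG replicate 1 (-0.16, 0.0872) or HG-SIG replicate 2 (-0.16, 0.0846). In HG-SIG against NC (-0.15 ± 0.06, adjusted p = 0.0373) it was lost without NC replicate 1, 2 or 3 (adjusted p = 0.0591, 0.0543 and 0.127) and without HG-SIG replicate 1 or 2 (0.107 and 0.105), with log2 fold changes of -0.17 to -0.13, and it turned to 0.035 with library size alone.

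The derlins, membrane proteins through which substrates leave the ER, fell slightly with sitagliptin under TMM scaling and not under library size alone. Derl1 was at 144 ± 4.06, 139 ± 1.47 and 128 ± 4.22 CPM in NC, HG and HG-SIG, and Derl2 at 68.6 ± 2.05, 63.4 ± 0.42 and 58 ± 0.866 CPM. Log2 fold changes with sitagliptin were -0.12 ± 0.04 (adjusted p = 0.0179) and -0.13 ± 0.04 (adjusted p = 0.0105), which became 0.044 and 0.033 with library size alone. Derl1 lost its call without HG-SIG replicate 2 (-0.11, adjusted p = 0.0544) or 3 (-0.10, 0.0778). The call of Derl2 in HG against NC (-0.11 ± 0.04, adjusted p = 0.0326) was lost without NC replicate 1 or 2 (adjusted p = 0.129 and 0.0675) and without HG replicate 1, 2 or 3 (0.0648, 0.0756 and 0.0541), with log2 fold changes of -0.12 to -0.093, and also with library size alone (0.101), DESeq2 (0.0676), limma on log2(TPM + 1) (0.158), no low-count filter (0.0963) or only the 6 libraries compared (0.057). Derl2 was lower in HG-SIG against NC (-0.24 ± 0.04, adjusted p = 8.81e-05), and not with library size alone (-0.052, 0.227).

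Os9, a lectin that hands misfolded glycoproteins to the HRD1 complex, was at 97.3 ± 1.88, 104 ± 0.275 and 108 ± 3.15 CPM in NC, HG and HG-SIG. It was called higher in HG-SIG against NC (0.15 ± 0.03, adjusted p = 0.00274) and not in HG-SIG against HG (0.05 ± 0.03, adjusted p = 0.217). Ubxn4, an ER membrane protein that recruits the ATPase VCP, was at 103 ± 0.592, 104 ± 3.95 and 105 ± 1.13 CPM, with no call in any of the 3 comparisons (adjusted p = 0.65, 0.741 and 0.354). Os9 had 0.09 ± 0.04 in HG against NC (adjusted p = 0.0614), and passed with library size alone (0.12, 0.0171).

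**Figure D4:**
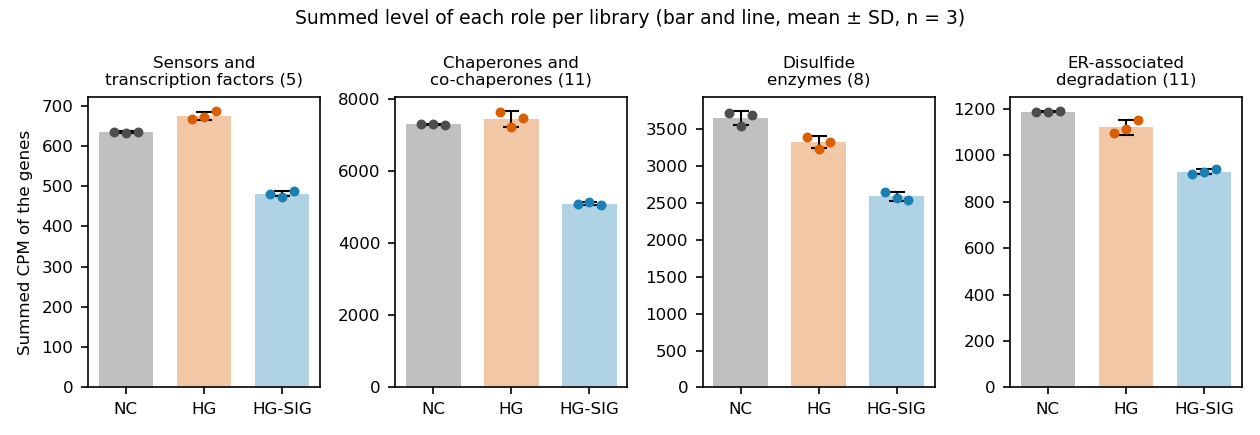
Summed CPM of the genes of each role (y axis, from 0) in each library (points), with the mean (bar) and SD of 3 libraries per group. HG-SIG is the lowest group in each role, and the step from HG is deepest for the chaperones (31.6%) and shallowest for the degradation genes (16.96%), with TMM scaling.

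Summed by role, the sensor genes stood at 634 ± 2.03 CPM in NC, 675 ± 10.4 CPM in HG and 481 ± 6.84 CPM in HG-SIG (SD, n = 3). For the chaperones the sums were 7299 ± 11.95, 7450.4 ± 214 and 5095 ± 37.6 CPM, for the disulfide enzymes 3654 ± 91.4, 3323 ± 82.04 and 2589 ± 58.4 CPM, and for the degradation genes 1188 ± 2.44, 1121 ± 30.8 and 931 ± 9.83 CPM. From HG to HG-SIG the sums dropped by 28.7%, 31.6%, 22.1% and 16.96% with TMM scaling, and as shares of all counts, with library size alone, by 20.2%, 23.6%, 12.9% and 7.18%. These sums follow the most abundant genes of each role. Whether the roles differ from each other was not tested.

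Levels per kilobase of exonic length, which allow genes to be ranked, spanned more than 2 orders of magnitude among the 34 tested genes. In NC the highest were Calr (495 ± 10.8 CPM per kilobase), P4hb (479 ± 12.6), Hsp90b1 (465 ± 4.67), Hspa5 (394 ± 6.04) and Pdia3 (347 ± 6.34), of which Calr and P4hb, and P4hb and Hsp90b1, overlapped in mean ± SD. Lowest were Ern1 (1.84 ± 0.153), Eif2ak3 (5.18 ± 0.171) and Dnajb9 (6.66 ± 0.201). In HG-SIG the first 5 were Calr (357 ± 1.82), Hsp90b1 (329 ± 4.49), P4hb (312 ± 12.5), Pdia3 (272 ± 2.76) and Hspa5 (239 ± 2.07). Hsp90b1 and P4hb overlapped there in mean ± SD. The levels of HG were 487 ± 15.96 for Calr, 455 ± 15.9 for Hsp90b1, 429 ± 18.8 for Hspa5, 401 ± 13.2 for P4hb and 354 ± 11.5 for Pdia3, where Hspa5 overlapped both Hsp90b1 and P4hb in mean ± SD. In HG-SIG Hspa5 lay below Pdia3 without such overlap, whereas in NC and HG it lay above. Exonic lengths take in every annotated transcript, so genes with long, rarely used exons rank too low.

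Other genes of the pathway were counted in 3 wider lists. Of 31 tested further ER folding genes, 12 fell and 7 rose in HG-SIG against HG (median log2 fold change -0.05), and of 24 further degradation genes 7 fell and 10 rose (median 0.06), beside the 26.8% lower and 25.7% higher of all features. Among 20 genes of stress signalling and its control, 7 fell and 3 rose (median -0.04). These counts moved with the scaling. With library size alone, 6 folding genes fell and 14 rose (median 0.12), and 1 degradation gene fell and 15 rose (median 0.22). Of the signalling genes 4 fell and 9 rose (median 0.12). Under that scaling 6093 of all 13311 features were called higher and 1826 lower, with a median of 0.17. Between NC and HG, where 14.3% of features were higher and 15.2% lower, the folding list had 5 rises and 2 falls, the degradation list 2 rises and 3 falls, and the signalling list 3 rises and 9 falls (median -0.19).

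With sitagliptin, the folding genes of lowest p were Erp29, an ER protein of the disulfide isomerase family without its active site (-0.40 ± 0.03, adjusted p = 8.85e-07), Tmx4, a membrane thioredoxin (0.58 ± 0.05, 1.53e-06), and Ero1b, the other ER oxidase (-0.47 ± 0.05, 3.76e-06). Ero1b thus fell, from 61.1 ± 0.525 to 44.01 ± 2.98 CPM, while Ero1a was not called. Among degradation genes, Herpud2, the relative of Herpud1 (0.45 ± 0.04, 1.84e-06), and Ngly1, which removes sugars from extracted glycoproteins (0.61 ± 0.07, 1.01e-05), rose. Herpud2 rose from 43.9 ± 0.739 to 60.04 ± 1.57 CPM, where Herpud1 fell. Neither difference between relatives was itself tested. The signalling genes of lowest p fell: Creb3l2, a relative of Atf6 that serves secretion (-0.75 ± 0.06, 1.01e-06), Atf4, the transcription factor gene downstream of PERK (-0.42 ± 0.04, 2.01e-06), and Atf3, a stress-induced transcription factor gene (-1.26 ± 0.18, 0.000104).

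In HG against NC the 3 signalling genes of lowest p, Eif2ak2, Trib3 and Atf4, fell. Trib3, a pseudokinase gene induced by ATF4, was at 8.17 ± 1.67 CPM in NC, 1.29 ± 0.215 CPM in HG and 1.48 ± 0.173 CPM in HG-SIG (-2.66 ± 0.18 in HG against NC, adjusted p = 2.92e-07). Atf4 was at 297 ± 11.8 CPM in NC, 209 ± 5.76 CPM in HG and 156 ± 2.68 CPM in HG-SIG (-0.51 ± 0.04, 7.32e-07), and so fell in HG, where Xbp1 and Eif2ak3 rose. Eif2ak2, the gene of the double-stranded RNA kinase PKR, had -0.60 ± 0.04 (2.01e-07). Among folding genes Erp29 (0.27 ± 0.03, 5.43e-05), Tmx2, another membrane thioredoxin (0.21 ± 0.04, 0.000776), and Cnpy4, of the canopy family (0.30 ± 0.06, 0.00211), rose. Among degradation genes Ubac2, which codes for an ER membrane protein with a ubiquitin-binding domain, rose (0.63 ± 0.08, 7.58e-05), and Nploc4, a cofactor of VCP, fell (-0.14 ± 0.04, 0.0185), a fall that did not pass with library size alone.

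For HG-SIG against NC, the genes of lowest p were Tmx4 (0.56 ± 0.05, 1.12e-06), Ero1b (-0.50 ± 0.05, 1.32e-06) and Tmx2 (0.36 ± 0.04, 2.24e-06) among the folding genes. They were Ngly1 (0.79 ± 0.07, 6.13e-07), Aup1, a lipid droplet and ER protein that recruits a ubiquitin-conjugating enzyme (-0.32 ± 0.03, 4.17e-06), and Fam8a1, a partner of HRD1 (0.59 ± 0.06, 5.88e-06), among the degradation genes. Atf4 (-0.93 ± 0.04, 5.07e-10), Eif2ak2 (-0.81 ± 0.04, 2.61e-09) and Creb3l2 (-1.11 ± 0.06, 9.42e-09) were those of the signalling list. These values are adjusted p from edgeR's quasi-likelihood test over all features.

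The scaling of the libraries bears on the size of these changes. Scaled by library size alone, the median log2 fold change of all features in HG-SIG against HG moved from 0.01 to 0.17, and in HG-SIG against NC from 0.02 to 0.21. Of all calls in HG-SIG against HG 48.9% were higher with TMM and 76.9% with library size alone, and in HG-SIG against NC 50.99% and 76.2%. Between NC and HG the shares were 48.4% and 58.9%. Under library size alone, 21 members fell and 9 rose in HG-SIG against HG, with a median of -0.24. Of all 13311 features, 1826 were then called lower and 6093 higher. The 11 chaperones and the 5 called disulfide enzymes remained lower. Eif2ak3, Derl1, Derl2 and Sel1l were no longer called lower, and Atf6b, Pdia5, Ero1a, Dnajc10, Edem2, Os9 and Ubxn4 were called higher, at 0.14 for Atf6b to 0.26 for Ero1a, values around the shifted median of all features. The extremes stayed at Herpud1 (-0.93) and Ern1 (0.73).

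**Figure D5:**
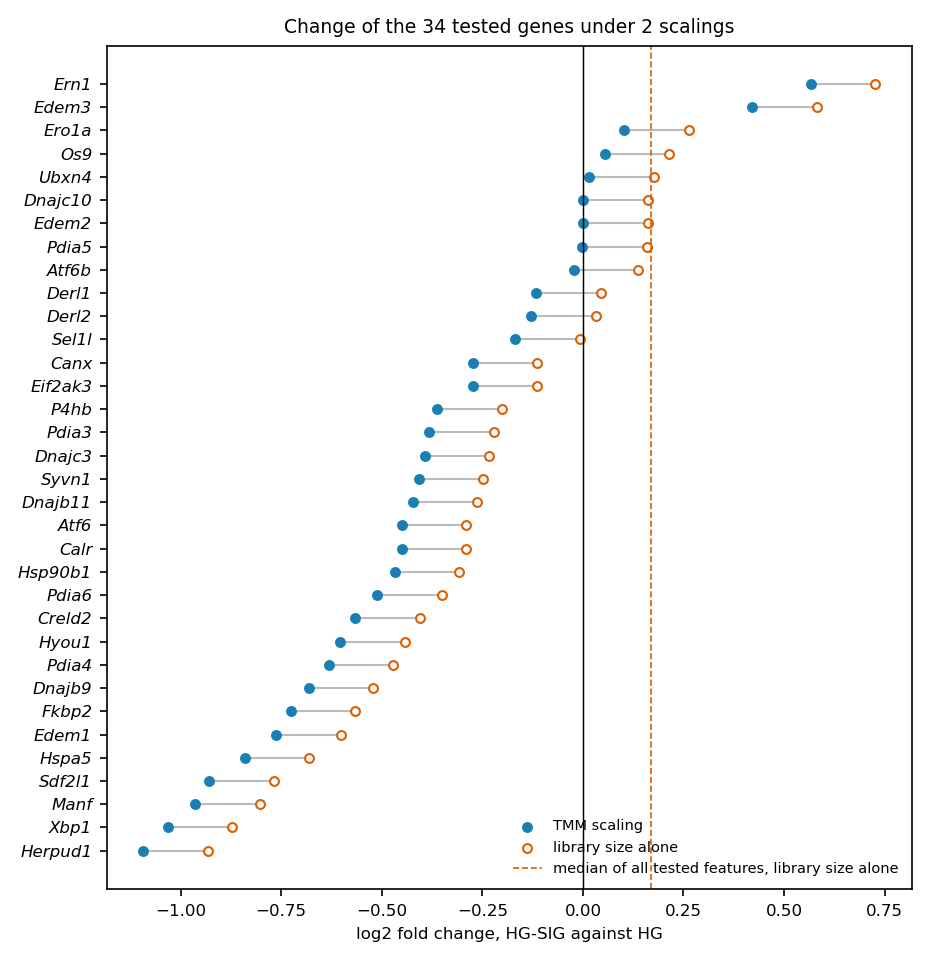
Log2 fold change in HG-SIG against HG (x axis) of the 34 tested genes (y axis, ordered by value) with TMM scaling (filled) and with library size alone (open), and the median of all tested features under the latter (dashed line, 0.17). The open points lie to the right of the filled ones by similar amounts, and the genes from Canx to Herpud1 are below 0 with both.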

How the data were processed

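RNA from 9 libraries of RAW264.7 cells (3 groups of 3) was analysed from the deposited table of counts per gene, whole numbers that the authors made with Bowtie2 2.3.5 and RSEM on mm10, named in the submitters' processing notes without their order. The annotation behind the counts was not given in the sources used here. Unannotated loci held 5.85% to 6.21% of each library's counts. Totals ran from 23285821 to 31571578 counts per library, so that a floor of 3 counts is 0.095 to 0.129 CPM; the floor covers counting error only.

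The members, their roles, the wider lists and the markers were chosen with earlier results of these data known. All 35 members are named, and the 3 called genes of lowest p-value per wider list and comparison, except 1 that is not reported here. In R 4.3.3, edgeR 4.0.16 fitted its quasi-likelihood model to the 9 libraries with a mean per group, TMM scaling and filterByExpr, which kept 13311 of 20627 features, with Benjamini-Hochberg adjustment over them. Values with ± are log2 fold change and SE, or mean and SD of TMM-scaled CPM over 3 libraries. On simulated counts of 13149 genes, HG against NC recovered 96% of changes of 0.5 and 100% of changes of 1, in log2. Of 206 calls there, 4.85% were false. HG-SIG against HG gave the same shares recovered, with 5.77% of 208 calls false. In the libraries themselves, 1899 features were called higher and 2028 lower in HG against NC. In HG-SIG against HG, 3417 were called higher and 3572 lower. The share of false calls with that many changes was not tested. Exonic lengths and coordinates came from GENCODE M21, and promoter sequences from RefSeq (GRCm38.p6); Atf6, Hyou1, Manf and Derl1 had no promoter entry. Counting by strand is not stated; no member shared more than 10% of its exonic length with another gene of the table.

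Alternatives were library size alone, RLE factors, DESeq2 1.42.0, limma 3.58.1 on log2(TPM + 1) (the series' own method), no low-count filter, the 6 compared libraries alone, each library left out, a replicate block, an absolute log2 fold change over 1 and the unannotated loci left out. Same-numbered HG and HG-SIG libraries correlated at 0.151, 0.156 and 0.279 in their deviations from the group mean, so these numbers were taken to pair the libraries. This pairing is read from the data, not from the labels. The main fit did not use it, and it entered only the replicate block alternative. That alternative blocked all libraries by number, NC included. No replicate pair was identical within sampling noise.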

Additional observations from a re-analysis of the deposited data

How the results depend on the processing

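Counts of members called were recomputed under each alternative. In HG against NC, 3 members rose and 6 fell; with the absolute log2 fold change over 1 required, 0 and 0 did (edgeR; 12 members were at an unadjusted p under 0.05, and DESeq2 called 3 and 5), and with the replicate number as a block 5 rose and 7 fell. In HG-SIG against HG the 2 rises and 25 falls became 0 and 2 with the fold criterion, 9 and 21 with library size alone, and 9 and 20 with limma on log2(TPM + 1). In HG-SIG against NC the 3 and 27 became 0 and 2, 6 and 21, and 8 and 19. Over all features in HG-SIG against HG, 6093 of 13311 rose and 1826 fell with library size alone. With limma 6624 of 12109 rose and 1467 fell. In HG-SIG against NC 6786 rose and 2120 fell with library size alone, and 7095 and 1757 with limma. Fewer genes can pass the fold criterion by construction, and for the other moves the cause was not tested. RLE factors, DESeq2, no filter, the 6 compared libraries alone and leaving out the unannotated loci (an alternative chosen after seeing the data) kept each of these counts within 1.5 times. Leaving out each library in turn gave 2 to 4 rises and 4 to 6 falls in HG against NC, 2 rises and 23 to 25 falls in HG-SIG against HG, and 3 rises and 24 to 27 falls in HG-SIG against NC. Of the log2 fold changes called with TMM or with the alternative, the following changed sign with library size alone and with limma on log2(TPM + 1), in that order. In HG-SIG against HG they were 0.14 and 0.18 for Atf6b, 0.16 and 0.19 for Pdia5, 0.044 and 0.087 for Derl1, 0.033 and 0.074 for Derl2, and for Sel1l 0.038 with limma. In HG-SIG against NC they were 0.053 and 0.10 for Atf6b, 0.17 and 0.20 for Eif2ak3, 0.079 and 0.12 for Dnajc10, 0.022 and 0.068 for Derl1, 0.035 and 0.081 for Sel1l, and 0.12 and 0.16 for Pdia5, which was called higher with limma alone. Dnajc10 was called higher with limma as well. Apart from the fold criterion, every alternative left the call of 27 of 34 members as it was in HG against NC, and of 22 in each of the other comparisons. With the replicate block, Atf6b, Hyou1 and Os9 passed in HG against NC (adjusted p = 0.0408, 0.0494 and 0.0416) and Ero1a in HG-SIG against HG, and the block changed no other call. Same-numbered NC and HG libraries correlated at 0.0816, 0.130 and 0.179 in their deviations from the group mean, and NC and HG-SIG libraries at 0.0822, 0.0728 and 0.116. Each library correlated best with its own number in these pairs too. Whether the numbers pair NC with the other groups is not given in the labels and was not tested. The replicate block calls in both comparisons with NC rest on such a pairing. The standard errors of 0.03 to 0.08 on the log2 scale set the size of difference that could be detected with these libraries.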
